A study of Mus musculus with 6 samples.

Results

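The miRNAs described here are miR-103 and miR-107, which are made from hairpins inside introns of the pantothenate kinase (Pank) genes. Members were chosen by name: mmu-miR-103-3p, mmu-miR-107-3p, mmu-miR-103-1-5p, mmu-miR-103-2-5p and mmu-miR-107-5p, written below without the mouse prefix. Stem-loop references were left out. Of these 5 arms, 3 were listed with reads among the 911 mature miRNA references of the series, and 0 joint entries held a member. Only miR-103-3p and miR-107-3p passed the filter on low counts. The libraries are small RNA sequencing of macrophages grown from mouse bone marrow, 3 from ApoE-KO (EKO) and 3 from WT mice, which the series design calls biological replicates. Apolipoprotein E, the product of Apoe, carries lipid out of macrophages, and the question of the series was how its loss changes their miRNAs. Both groups came from male mice aged 6 to 12 weeks, and marrow cells of both were cultured in DMEM with 10% fetal bovine serum, GlutaMAX and Penicillin/Streptomycin. Both received recombinant murine M-CSF (macrophage colony-stimulating factor) at 25 ng/mL, given every 2 days for 6 days. The labels name no other allele, and the strain is not given in the sources used here. Messages such as Apoe were not sequenced, which leaves the genotype labels unchecked.

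Pantothenate kinases carry out the first step of coenzyme A synthesis, and mouse Pank1, Pank2 and Pank3 each carry miR-103 or miR-107 in an intron. A miRNA is cut from its hairpin by Drosha and Dicer, and the arm that is kept guides Argonaute to messages that pair with its seed, bases 2 to 8. The miR-103/107 pair is known to restrain insulin signalling in liver and fat through caveolin-1, and to lower Dicer itself in tumour cells.

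The guide arms are shown first because their likeness decides how reads can be assigned. RefSeq (GRCm38.p6) gave a sequence for each of the 5 arms, and the seed is in capitals in these lines.
miR-103-3p: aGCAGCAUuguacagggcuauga
miR-107-3p: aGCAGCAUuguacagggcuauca
Both are 23 bases long and share the seed GCAGCAU. Among 1679 mouse mature miRNAs in the RefSeq table, these 2 are the only ones with that seed. They differ at 1 base, G22C, counted from 1 at the 5′ end with the miR-103-3p base first. The first 21 bases are the same, so a read that ends before base 22 cannot be assigned to either one.

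The passenger arms tell the 2 miR-103 hairpins apart, where the guide arm cannot. They are printed with the bases that differ between miR-103-1-5p and miR-107-5p in capitals, and for miR-103-2-5p with the base that differs from miR-103-1-5p in capitals.
miR-103-1-5p: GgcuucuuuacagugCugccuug
miR-103-2-5p: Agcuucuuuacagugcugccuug
miR-107-5p: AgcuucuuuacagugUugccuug
The 2 miR-103 passenger arms differ by G1A, and miR-103-2-5p and miR-107-5p differ by C16U. All 3 share the seed GCUUCUU.

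The 3 hairpins, also from RefSeq, are printed with both mature arms in capitals to show that miR-103-3p is the same in 2 of them. Coordinates are of GRCm38.p6, not of the mm9 build the submitters name, and no measurement was placed by coordinate.
Mir103-1: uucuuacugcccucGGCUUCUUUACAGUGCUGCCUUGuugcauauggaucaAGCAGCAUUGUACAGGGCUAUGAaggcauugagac
Mir103-2: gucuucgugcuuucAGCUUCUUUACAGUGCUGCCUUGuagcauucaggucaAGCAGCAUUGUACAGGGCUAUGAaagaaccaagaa
Mir107: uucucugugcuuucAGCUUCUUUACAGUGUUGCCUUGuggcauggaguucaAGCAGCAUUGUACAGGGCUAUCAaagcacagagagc
Mir103-1 lies at chr11:35782396-35782481 on the plus strand, in intron 5 of 6 of the principal Pank3 transcript in GENCODE M21. Mir103-2 lies at chr2:131288052-131288137 on the plus strand, in intron 5 of 6 of the principal Pank2 transcript. Mir107 lies at chr19:34820687-34820773 on the minus strand, in intron 5 of 6 of the principal Pank1 transcript. Each hairpin is on the strand of its host and wholly intronic, 688, 454 and 326 bases after the upstream exon for Mir103-1, Mir103-2 and Mir107. Messages of Pank1, Pank2 and Pank3 were not measured, so hairpin output cannot be set against its host.

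Library totals ran from 34651516 to 41331600 reads on mature miRNAs, with EKO and WT overlapping. Mature references with at least 1 read numbered 543 to 591 in EKO and 664 to 698 in WT, and the part of this gap in the results below was not tested. Of the 7 miRNAs listed as macrophage and myeloid markers, miR-21a-5p, miR-223-5p, miR-146a-5p and miR-142a-3p were abundant in every library. Levels of miR-146a-5p overlapped between groups, at 2205 CPM in EKO and 2099 CPM in WT on average. The 7 summed to 152701 to 167314 CPM in EKO and 213909 to 234719 CPM in WT. This sum was nearly all miR-21a-5p, so it mostly shows the level of that miRNA. Without overlap, EKO values were below WT for miR-21a-5p (log2 fold change -0.50), miR-223-3p (-0.62) and miR-142a-5p (-0.64), and above WT for miR-223-5p (0.46). None of the 7 passed the adjusted threshold, and their part in the values of miR-103 and miR-107 was not tested. The Mrc1-intron marker miR-511-3p stayed between 0 and 0.659 CPM in EKO and between 0.438 and 1.31 CPM in WT. CPM means reads per 1000000 reads of a library, here further scaled by TMM, a factor that aligns libraries on the bulk of their miRNAs.

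The guide arm miR-103-3p had lower values in EKO than in WT macrophages, without passing the test over all miRNAs. Its level was 519, 594 and 686 CPM in EKO replicates 1, 2 and 3, and 898, 844 and 1214 CPM in WT replicates 1, 2 and 3. The groups did not overlap, with each EKO library under the lowest WT library, and WT replicate 3 stood highest. The means were 599 ± 83.6 CPM in EKO and 986 ± 200 CPM in WT (SD, n = 3 each). The log2 fold change was -0.72 ± 0.17 (SE), with an unadjusted p of 0.00341 and a Benjamini-Hochberg adjusted p over 575 miRNAs of 0.0786 (quasi-likelihood test of edgeR). By p-value it was number 24 of the 575. By abundance it ranked between 50 and 67 in its libraries, with 0.0486% to 0.127% of the reads. In bulk cultures such as these, fewer cells that make a miRNA and less of it per cell cannot be told apart.

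The second guide arm, miR-107-3p, was less abundant and had lower EKO values too. Its level was 40.5, 33.5 and 39.3 CPM in EKO replicates 1, 2 and 3, and 56.4, 50.7 and 92.3 CPM in WT replicates 1, 2 and 3. The groups did not overlap, and WT replicate 3 was again highest. The means were 37.8 ± 3.73 CPM in EKO and 66.5 ± 22.5 CPM in WT (SD, n = 3 each). The log2 fold change was -0.82 ± 0.27 (SE), with an unadjusted p of 0.0159 and an adjusted p of 0.122 (edgeR). Without WT replicate 3 it was -0.49, with an adjusted p of 0.404 (edgeR).

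**Figure D1:**
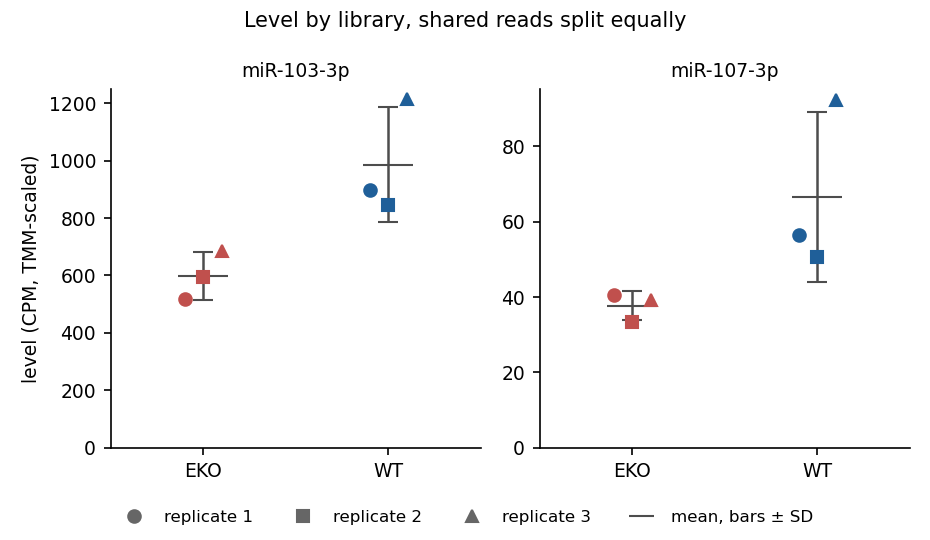
Level of miR-103-3p (left) and miR-107-3p (right) in CPM, by genotype; each point is a library, horizontal lines are means and bars are ± SD over 3 libraries. Both panels start at 0, the EKO points lie below the WT points, and WT replicate 3 is highest in each, at 1214 and 92.3 CPM.

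Both guide arms were read against the table as a whole. At an adjusted p under 0.05, 0% of the 575 tested miRNAs were called in either direction by edgeR. At an unadjusted p under 0.05, both guide arms were among the 13% of tested miRNAs with lower EKO values. Lower EKO values with no overlap between groups, which both guide arms had, were found for 18.8% of tested miRNAs. Negative log2 fold changes made up 58.3% of the table, whose median was -0.16.

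Whether miR-103-3p passed depended on the test, the filter and the libraries included, and its log2 fold change ran from -0.84 to -0.48 over all settings run. Restricted to the 251 miRNAs with a mean of at least 10 CPM, edgeR called it lower in EKO, at -0.69 with an adjusted p of 0.0284. In that restricted fit 12.7% of miRNAs were called lower. It was also called lower with DESeq2, at -0.63 and an adjusted p of 0.00603, where 8.69% of the miRNAs with an adjusted p were called lower. With limma-voom it was -0.71, with an adjusted p of 0.0484, and 4% were called lower. Over 16 other settings (tests, scalings, filters, count columns and left-out libraries), miR-103-3p passed in 7 and its adjusted p ranged from 0.00224 to 0.285. In the restricted fit it no longer passed when any one of EKO replicates 1 and 2 or the 3 WT libraries was left out (adjusted p from 0.0589 to 0.118, edgeR). For miR-107-3p, 0 of the same 16 settings gave a pass, with adjusted p-values from 0.0601 to 0.404.

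**Figure D2:**
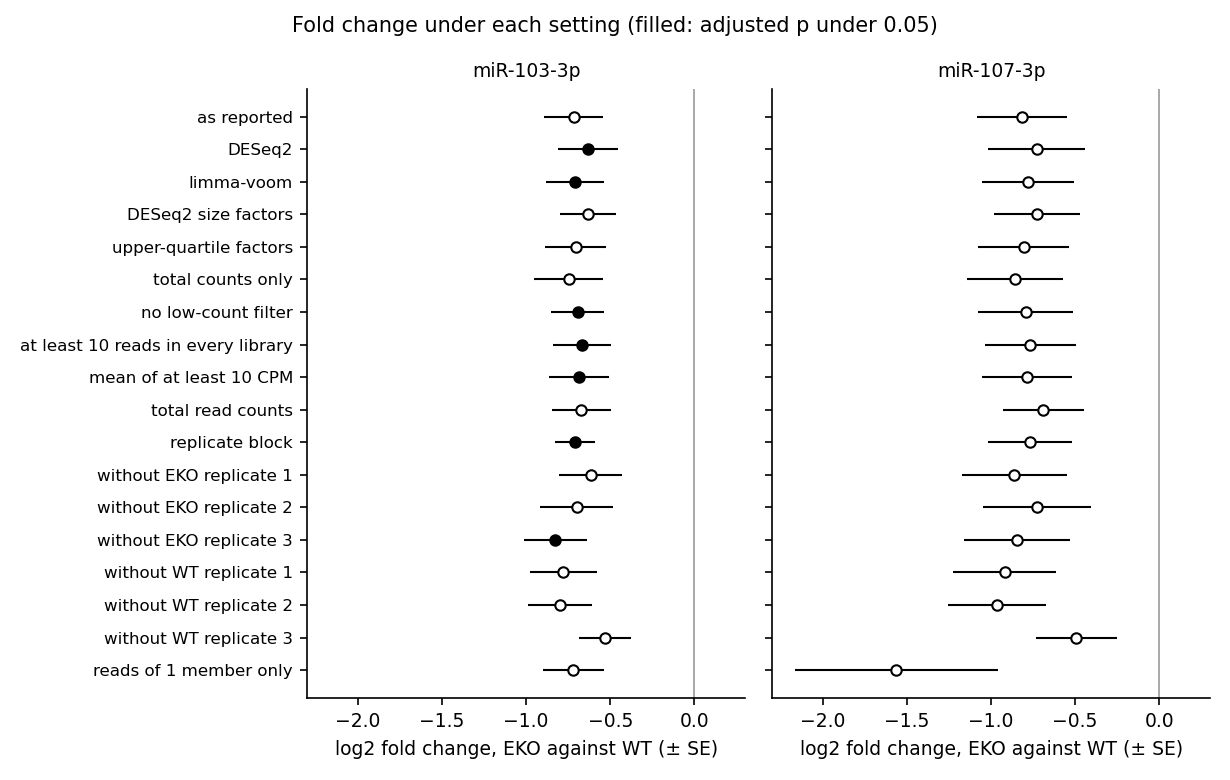
Log2 fold change of EKO against WT, with bars of ± 1 SE, for miR-103-3p (left) and miR-107-3p (right) under each setting on the vertical axis; filled points have an adjusted p under 0.05. All points lie left of 0, those of miR-103-3p between -0.83 and -0.53, and miR-107-3p moves to -1.56 when reads that match both are set apart.

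The deposited tables showed that the level of miR-107-3p was mostly made of reads that miR-103-3p could claim as well. A total count gives a read in full to every reference it matches, while the adjusted count divides it among them. In EKO replicate 1, miR-103-3p gave up 1202 reads between the 2 counts and miR-107-3p gave up 1202. The amounts given up by the 2 miRNAs were equal within 0.5 reads in each of the 6 libraries. With such reads divided equally between them, the reads that match both numbered 2404, 2341 and 2179 in EKO and 3272, 3267 and 5341 in WT. These shared reads were 80.6% to 95.5% of the total count of miR-107-3p but 8.04% to 13.3% of that of miR-103-3p.

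Reads that match miR-107-3p and not miR-103-3p were few. They numbered 113, 172 and 401 in EKO replicates 1, 2 and 3, and 552, 407 and 1287 in WT replicates 1, 2 and 3. Scaled to library size these were 3.48, 4.30 and 10.6 CPM in EKO, and 14.2, 10.1 and 30.0 CPM in WT. The groups overlapped, because EKO replicate 3 lay above WT replicate 2. The means were 6.11 ± 3.88 CPM in EKO and 18.1 ± 10.5 CPM in WT (SD, n = 3 each). The log2 fold change of these reads was -1.56 ± 0.60 (SE), with an unadjusted p of 0.0316 and an adjusted p of 0.172 (edgeR). It was -0.98 when WT replicate 3 was left out (edgeR adjusted p = 0.691) and -2.22 when EKO replicate 3 was left out (edgeR adjusted p = 0.0640).

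Reads that match miR-103-3p and not miR-107-3p kept the pattern of the full count. Their levels were 482, 565 and 657 CPM in EKO and 856, 804 and 1152 CPM in WT, with no overlap between groups. The log2 fold change was -0.72 ± 0.18 (SE, adjusted p = 0.0773, edgeR). The shared reads stood at 74.1, 58.5 and 57.4 CPM in EKO and 84.4, 81.2 and 125 CPM in WT, also without overlap (-0.61 ± 0.23 on the log2 scale, edgeR adjusted p = 0.168). Without WT replicate 3 the value for shared reads was -0.38 (edgeR adjusted p = 0.564). With both guide arms summed to 1 feature, the log2 fold change was -0.71 ± 0.18 (SE, adjusted p = 0.0774, edgeR).

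**Figure D3:**
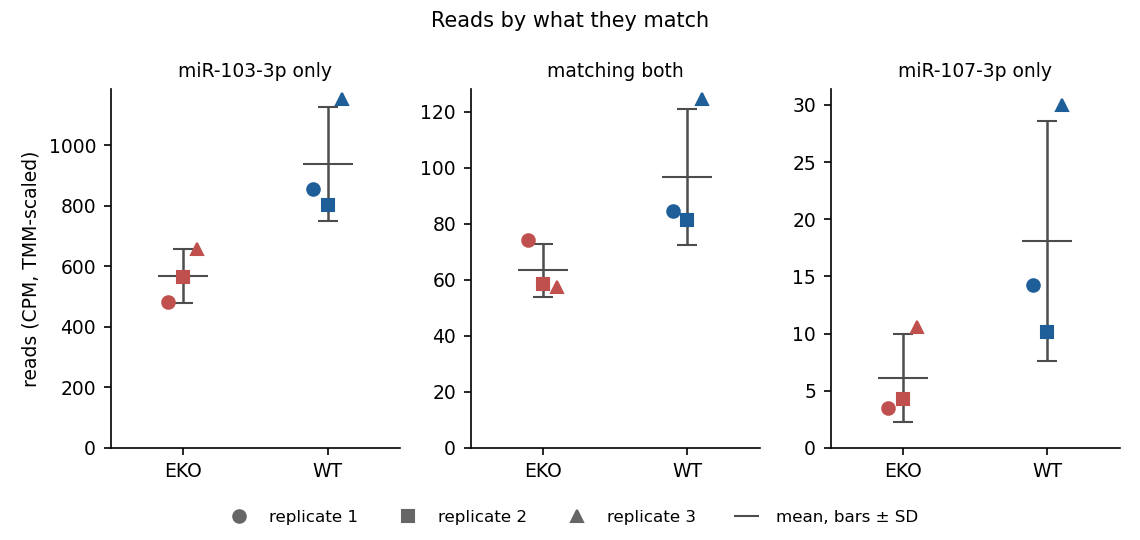
Reads per library in CPM that match miR-103-3p only (left), both guide arms (middle) and miR-107-3p only (right), by genotype; points are libraries, horizontal lines are means and bars are ± SD over 3 libraries. The vertical scales differ: the left panel reaches 1152 CPM and the right panel 30.0 CPM, and only in the right panel do the groups overlap.

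The balance between the 2 guide arms is a ratio within a library and needs no scaling. By the adjusted counts, miR-107-3p made up 7.25%, 5.35% and 5.42% of the pair in EKO, and 5.91%, 5.66% and 7.06% in WT. These shares overlapped, and the means of 6.00% and 6.21% did not differ beyond the spread of the libraries (difference -0.21 percentage points, p = 0.6 by a two-sided exact permutation test, whose smallest possible p with these groups is 0.1). Among reads that match 1 of the 2 only, miR-107-3p made up 0.718% in EKO replicate 1 (95% exact Clopper-Pearson interval 0.592 to 0.862). It made up 0.755% in EKO replicate 2 (0.647 to 0.876) and 1.58% in EKO replicate 3 (1.43 to 1.74). In WT replicates 1, 2 and 3 it made up 1.64% (1.50 to 1.78), 1.24% (1.13 to 1.37) and 2.54% (2.40 to 2.68). Here too the groups overlapped, with EKO replicate 3 above WT replicate 2, and the means were 1.02% in EKO and 1.81% in WT (exact permutation p = 0.2). The intervals cover counting error only, since PCR copies were not removed.

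So miR-103-3p reads outnumbered those of miR-107-3p between 12.8 and 17.7 to 1 by the adjusted counts, and between 38.4 and 138 to 1 among reads that match 1 of the 2 only. Both arms have the same length, but small RNA kits can favour some sequences, and the part of that in these ratios was not tested.

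Passenger arms were close to absent. The arm miR-103-1-5p, from the Pank3 intron, and miR-107-5p, from the Pank1 intron, were not listed in any of the 6 libraries and were taken as 0. The arm miR-103-2-5p, from the Pank2 intron, had 15 reads of 1 distinct sequence in WT replicate 1, or 0.387 CPM, and 0 in the other libraries. In WT replicate 1 the passenger arms thus took 0.0405% of the reads of all 5 arms (95% exact Clopper-Pearson interval 0.0227 to 0.0668). The interval treats the 15 reads as independent, though all were of 1 sequence and PCR copies were not removed. In the other libraries a count of 0 allows a share, taken as 3 counts of the total, of up to 0.0165% in EKO replicate 1, 0.0119% in EKO replicate 2 and 0.0109% in EKO replicate 3. It allows up to 0.00833% in WT replicate 2 and 0.00535% in WT replicate 3. With reads of 1 sequence in 1 library, the passenger arms do not show which miR-103 hairpin was used.

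Distinct read sequences, as the deposited count of unique reads was taken to mean, were also compared for each guide arm. For miR-103-3p they numbered 262, 328 and 342 in EKO and 441, 423 and 523 in WT, and the groups did not overlap. These counts were not scaled to read number, and total reads of miR-103-3p were 18035 to 27109 in EKO and 35615 to 54747 in WT. The part of read number in the distinct sequences was not tested, and other miRNAs were not compared in this way. Each distinct sequence of miR-103-3p was read 74.7 ± 5.34 times in EKO and 90.5 ± 12.3 times in WT (SD over 3 libraries; p = 0.1 by exact permutation, the smallest this design allows). For miR-107-3p the distinct sequences numbered 94, 106 and 114 in EKO and 157, 151 and 199 in WT. They were read 24.4 ± 2.15 times each in EKO and 27.3 ± 5.17 times in WT (exact permutation p = 0.5). In all, 6 such comparisons within libraries were made by permutation, among them the passenger share, where reads in 1 library only make the test uninformative, and the smallest adjusted p was 0.6.

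The pattern of miR-103-3p over the 6 libraries was set against those of 248 other miRNAs with a mean of at least 10 CPM. Likeness was the root mean square difference of log2(CPM + 1), each centred on its own mean over the 6 libraries. Its median over the 248 was 0.46. Nearest was miR-93-5p, from the Mcm7 intron, at a difference of 0.043. It stood at 406 ± 53.4 CPM in EKO and 683 ± 122 CPM in WT (SD over 3 libraries). Its log2 fold change was -0.75 with an SE of 0.17, and edgeR gave it an adjusted p of 0.0766. Next came let-7d-5p at 0.077, miR-223-3p at 0.094, miR-23b-3p at 0.10 and let-7g-5p at 0.11. The seed partner miR-107-3p differed from miR-103-3p by 0.18, and 22 of the 248 were nearer. For miR-107-3p the nearest were miR-223-3p at 0.17, miR-484 at 0.18, miR-93-5p at 0.18, miR-98-5p at 0.20 and let-7d-5p at 0.20, and 3 of the 248 were nearer to it than miR-103-3p. The profile of miR-107-3p includes its part of the shared reads, so its likeness to miR-103-3p is partly built into the counts.

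**Figure D4:**
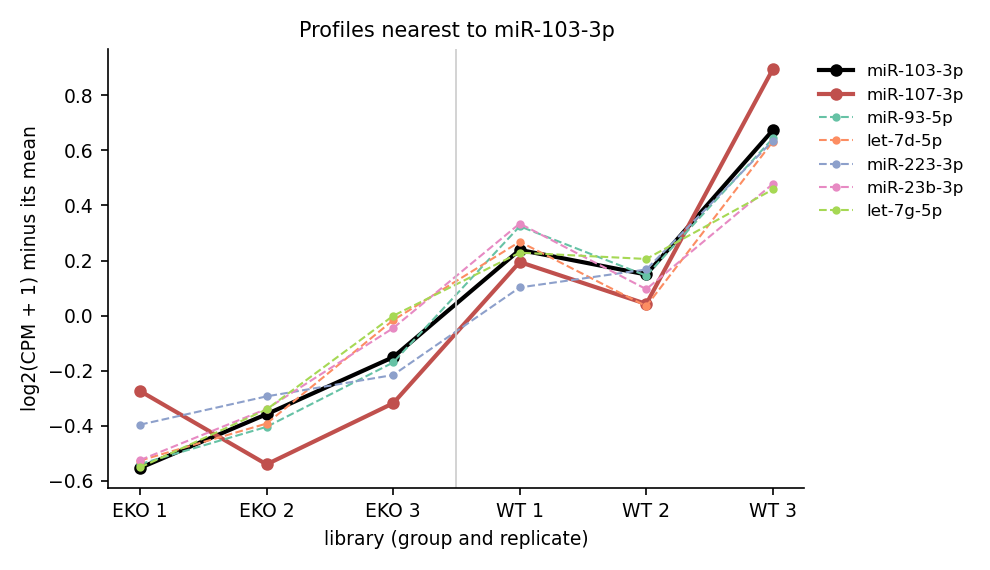
Log2(CPM + 1) minus its mean over the 6 libraries, for both guide arms (solid) and the 5 miRNAs nearest to miR-103-3p (dashed), by library; lines only join the points of 1 miRNA, and replicates have no order. The miR-93-5p line lies closest to miR-103-3p (difference 0.043), while miR-107-3p departs most from it in EKO replicate 1 and WT replicate 3.

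The miR-15/16 family shares its seed, AGCAGCA, with bases 1 to 7 of the miR-103/107 guide arms, so its seed is offset by a base. RefSeq held 10 mouse miRNAs with that seed, of which 6 had reads and 5 were tested. All 5 had lower values in EKO, with a median log2 fold change of -0.63 against -0.16 over all tested miRNAs, and 0 passed an adjusted p of 0.05. At an unadjusted p under 0.05 there was 1 of 5 (13% of all tested). This was miR-16-5p, which restrains cell-cycle genes, at 219, 284 and 385 CPM in EKO and 424, 399 and 550 CPM in WT. Its groups did not overlap (log2 fold change -0.63 ± 0.22, adjusted p = 0.154, edgeR). Its partner miR-15b-5p stood at 35.2, 66.3 and 76.0 CPM in EKO and 68.1, 74.2 and 91.7 CPM in WT, with overlap. The next by level, miR-322-5p, stood at 5.33, 5.75 and 14.6 CPM in EKO and 11.1, 15.9 and 12.6 CPM in WT, also with overlap.

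Of 16 metabolic and insulin-linked miRNAs, many also intronic, 10 were tested. Of these, 8 had lower and 2 had higher values in EKO (7 and 3 under upper-quartile scaling or the size factors of DESeq2). Their median log2 fold change was -0.57. At an unadjusted p under 0.05 there were 4 lower (13% of all tested) and 1 higher (8.35% of all tested), and 0 passed the adjusted threshold. The 1 higher was miR-122-5p, at 164, 99.8 and 100 CPM in EKO and 58.3, 50.8 and 45.0 CPM in WT, without overlap. Its log2 fold change was 1.24 ± 0.25 (SE, adjusted p = 0.0766, edgeR). The Ctdsp-intron miRNA miR-26a-5p stood at 3915, 4798 and 6592 CPM in EKO and 7392, 7619 and 9286 CPM in WT, without overlap (-0.67 ± 0.19 on the log2 scale, edgeR adjusted p = 0.097). Its relative miR-26b-5p stood at 748 CPM in EKO and 1449 CPM in WT on average, with no overlap (-0.95 ± 0.22, adjusted p = 0.0766, edgeR). The Ppargc1b-intron miRNA miR-378a-3p stood at 3572, 3644 and 3398 CPM in EKO and 3738, 3562 and 3314 CPM in WT, overlapping. With a log2 fold change of -3.9e-05, it counts among the 8 lower by sign only. Also among the 8 was miR-33-5p, near the floor at 0.0308 CPM in EKO and 0.664 CPM in WT on average. Not listed in any library, and taken as 0, were the heart and muscle miRNAs miR-208a-3p, miR-208b-3p and miR-499-5p, the islet miRNA miR-375-3p, and miR-802-5p.

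Of 9 let-7 family members, which like miR-103/107 are known to target the Dicer1 transcript, 6 had lower and 3 had higher values in EKO (5 and 4 with those same 2 scalings). Their median log2 fold change was -0.21, with 4 lower and 0 higher at an unadjusted p under 0.05 (against 13% lower and 8.35% higher among all 575 tested), and 0 past the adjusted threshold. The most abundant, let-7i-5p, stood at 205711 CPM in EKO and 180498 CPM in WT on average. Levels of let-7f-5p averaged 124892 and 126526 CPM, and those of let-7a-5p 28845 and 33410 CPM, in EKO and WT.

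Among 19 intronic miRNAs of other host genes, 17 were tested, 10 with lower and 7 with higher values in EKO (9 and 8 with the size factors of DESeq2). The median log2 fold change was -0.16, the same as over all tested miRNAs, with 3 lower and 2 higher at an unadjusted p under 0.05 (again against 13% and 8.35% of all tested) and 0 past the adjusted threshold. One of the lower ones was the joint entry of miR-28a-5p and miR-28c (unadjusted p = 0.0273, edgeR), used here for miR-28a-5p. The separate entry of miR-28a-5p alone overlapped between groups (unadjusted p = 0.212, edgeR). The most abundant, miR-151-3p, had higher EKO values, at 24884, 18569 and 13108 CPM against 9913, 9688 and 6561 CPM in WT. Then came miR-25-3p, from the Mcm7 intron as is miR-93-5p, at 8373 CPM in EKO and 7598 CPM in WT on average, and miR-140-3p, at 3719 and 3526 CPM. These lists were not tested against the pair or against other miRNAs.

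**Figure D5:**
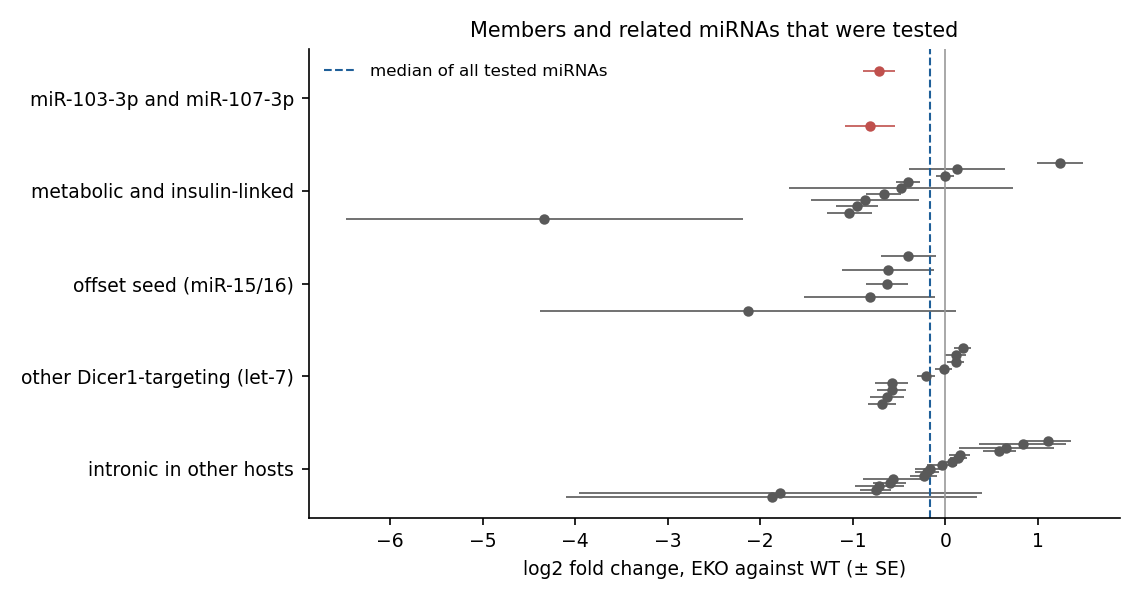
Log2 fold change of EKO against WT, with bars of ± 1 SE, for both guide arms (top) and for the tested members of each related list; the dashed line is the median of all tested miRNAs, -0.16. Both guide arms and all 5 tested miR-15/16 members lie left of the line, and the intronic miRNAs of other hosts lie on both sides of it.

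Markers of other cells that a marrow culture can hold are given because values of some did not overlap between the groups, though 0 passed the adjusted threshold. Of 7 stromal fibroblast miRNAs, 6 were tested and 4 had lower EKO values, with a summed level of 3771 to 4169 CPM in EKO and 3950 to 4112 CPM in WT. The sum was mostly miR-140-3p. Without overlap, mean levels in EKO and WT were 175 and 319.6 CPM for miR-140-5p, 1.96 and 10.2 CPM for miR-199a-3p (listed jointly with miR-199b-3p), and 0.592 and 3.74 CPM for miR-199a-5p, none past the adjusted threshold. The stromal miR-143-3p stood at 123, 76.4 and 72.1 CPM in EKO and 183, 216 and 157 CPM in WT, also without overlap. Its log2 fold change was -1.04 (edgeR adjusted p = 0.0777). Lower EKO values without overlap were thus found for 4 of the 6 tested, against 18.8% of all tested miRNAs. Of these, miR-199a-3p (0.0616 CPM in EKO replicate 1) and miR-199a-5p (0 in EKO replicate 2) passed the low-count filter only with WT libraries. This partly fixed their direction in advance. The 2 with higher EKO values, both overlapping, averaged 3719 and 3526 CPM (miR-140-3p) and 1.24 and 0.103 CPM (miR-214-3p) in EKO and WT. The stromal miR-145a-5p was at 0 in 5 libraries. Of 5 lymphoid miRNAs, 4 were tested and 3 had lower EKO values, with sums of 531 to 634 CPM in EKO and 722 to 807 CPM in WT. The sum was mostly miR-181a-5p (means of 257 CPM in EKO and 312 CPM in WT) and miR-181b-5p (292 and 401 CPM). Mean levels were higher in EKO for miR-181d-5p (45.2 and 41.4 CPM) and for the untested miR-181c-5p (1.09 and 0.0777 CPM), both with overlap. The lymphoid miR-150-5p stayed between 2.77 and 5.91 CPM over all libraries. The 4 endothelial and progenitor miRNAs summed to 66.4 to 72.2 CPM in EKO and 79.7 to 84.9 CPM in WT. The sum was nearly all miR-126a-3p, and miR-126a-5p was at 0 in 5 libraries. All 3 tested members had lower EKO values without overlap (18.8% of all tested miRNAs), and 0 passed the adjusted threshold. In EKO replicates 1, 2 and 3, miR-196a-5p stood at 0, 0 and 0.0263 CPM, and miR-196b-5p at 0.370, 0 and 0.685 CPM. These passed the low-count filter only with the WT libraries, which partly fixed their lower EKO values in advance. Their lack of overlap therefore cannot be weighed against the share among all tested miRNAs. Mean levels in EKO and WT were 69.0 and 77.1 CPM for miR-126a-3p. They were 0.00878 and 2.10 CPM for miR-196a-5p, and 0.352 and 2.84 CPM for miR-196b-5p. Erythroid miRNAs, of which miR-486a-5p and miR-486b-5p form a joint entry, summed to 116 to 154 CPM in EKO and 129 to 158 CPM in WT, with miR-144-3p at 0 in all 6. The sum was nearly all miR-486, and the erythroid miR-451a stood at 6.32, 5.25 and 1.26 CPM in EKO and 0, 0 and 0.560 CPM in WT, without overlap (edgeR adjusted p = 0.26). Epithelial miRNAs summed to 118 to 176 CPM in EKO and 137 to 162 CPM in WT, with miR-205-5p at 0 in 4 libraries. The part of these cell types in the miR-103/107 values was not tested.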

How the data were processed

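Small RNA was sequenced from 3 EKO and 3 WT macrophage cultures; RNA was purified with the Qiagen RNeasy Mini Kit and the NEB SmallRNA kit was used for libraries, per the labels' protocols. Such columns can lose small RNA. Per the submitters' processing notes the build was mm9; how reads were aligned and counted is not stated there. Per the file headers, each deposited table holds 4 counts per reference: unique reads, total reads, reads adjusted for multiple mapping, and a barcode count. The barcode count, another measure, was deposited by the authors as 0 throughout. Unique reads were taken here as distinct sequences, and adjusted reads as an expected count in which shared reads are divided. Unlisted references were taken as 0. Stem-loop references (at most 0.00161% of reads) were left out.

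Expected counts as deposited were rounded and tested with edgeR 4.0.16 in R 4.3.3 (TMM, filterByExpr, quasi-likelihood test on genotype, Benjamini-Hochberg threshold 0.05); the standard error is the log2 fold change divided by the square root of F. Alternatives used DESeq2 1.42.0, limma 3.58.1 (voom), other scalings and filters, total counts, a block on replicate number and the omission of each library. Fits were tested on simulated data. Reads that match 1 guide arm only were computed as the adjusted count minus the amount given up, that is the adjusted count doubled less the total count. Shares were compared with exact permutation tests (scipy 1.17.1). All 5 members are named whatever their result, with the 5 nearest profiles per guide arm and up to 3 most abundant members per list; other names, for example miR-26b-5p, let-7 neighbours and the markers, were chosen after their values were seen. Members and lists were chosen with earlier results of these data known. Library pairs of 1 genotype differed by far more than read-counting error (chi-square per degree of freedom from 211 to 1743).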

Additional observations from a re-analysis of the deposited data

How the results depend on the processing

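Under every alternative run, miR-103-3p and miR-107-3p had negative log2 fold changes. For miR-103-3p an adjusted p under 0.05 was reached with DESeq2 (-0.63) or limma-voom (-0.71), when all listed miRNAs were kept (-0.69), when 10 reads were asked of each library (-0.67) or 10 CPM of the mean (-0.69), with the replicate block (-0.71), and with reads of 1 member only under the 10 CPM filter (-0.69). Leaving out a library gave -0.84 to -0.48 for miR-103-3p, -2.22 to -0.45 for miR-107-3p and -0.73 to -0.38 for the shared reads. For both guide arms the lowest value was of reads of 1 member only, and the highest was under the 10 CPM filter. Alternatives that set shared reads apart, or combine the CPM filter with leaving out a library, were chosen after seeing the data. Leaving out a library under the usual filter, with adjusted counts, was not among those. It gave miR-103-3p from -0.83 without EKO replicate 3, where this miRNA passed (adjusted p = 0.0471, edgeR), to -0.53 without WT replicate 3. For miR-107-3p it gave -0.96 without WT replicate 2 to -0.49 without WT replicate 3. With the 10 CPM filter miR-103-3p passed without EKO replicate 3 (-0.77). DESeq2 size factors gave a median of all miRNAs of -0.08 against -0.16, and miR-103-3p at -0.63.

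The fit as reported called 0 miRNAs higher in EKO and 0 lower. The calls were 43 higher and 49 lower with DESeq2, 9 and 23 with limma-voom, 24 and 28 when all listed miRNAs were kept, 21 and 22 with the minimum of 10 reads, 27 and 32 with that of 10 CPM, and 26 and 36 with the replicate block. At an unadjusted p under 0.05, edgeR gave 48 and 75. Leaving out a library gave 0 to 38 higher and 0 to 53 lower; under the usual filter only the set without EKO replicate 3 gave calls, 16 and 29. With the 10 CPM filter there were 38 and 53 without EKO replicate 3, 6 and 7 without EKO replicate 1, 0 and 1 without EKO replicate 2, and 0 and 0 without any of the WT libraries. The cause was not tested. Same-numbered libraries deviated together at correlations of 0.14, -0.08 and 0.32 for replicates 1, 2 and 3. The last of these, EKO replicate 3 with WT replicate 3, was the highest among all pairs of an EKO and a WT library. EKO replicate 1 correlated best with WT replicate 2 (0.31), and EKO replicate 2 with WT replicate 3 (0.07). With 3 libraries per group, these correlations are too few to decide whether the numbers pair the libraries.

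The difference in the miR-107-3p share turned from -0.21 to 0.15 percentage points with total read counts, and to 0.12, 0.083 and 0.21 without EKO replicate 2, EKO replicate 3 and WT replicate 3; leaving out a library gave -1.07 to 0.21, reads of 1 member only included. That of the passenger share ranged from -0.0203 to 0 percentage points, the 0 without WT replicate 1. No joint entry held a member, so that alternative was not run.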

Other observations

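Few miRNAs in these tables depend on shared reads as much as miR-107-3p. Summed over the 6 libraries, miR-107-3p gave up 43.3% of its total reads in the division, number 11 of 575 tested miRNAs, and miR-103-3p gave up 4.78%, number 33. The median over tested miRNAs was 0%, with 453 giving up none and 25 giving up more than 10%.

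EKO replicate 1 had the largest part of reads that match both guide arms, 13.2% of all reads of the pair, against 9.32% and 7.92% in the other EKO libraries and 8.84%, 9.07% and 9.53% in WT (exact permutation p = 0.8 between genotypes). The level of miR-107-3p by adjusted counts was highest among EKO libraries there, at 40.5 CPM, while its reads that match it alone were lowest, at 3.48 CPM. The shared reads assigned to it made up 91.4% of the adjusted count of miR-107-3p in EKO replicate 1, and 67.5% in WT replicate 3.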
